A study of Drosophila melanogaster with 33 samples.

Results

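Linear RNA of 8 hemocyte marker genes was followed with age in heads of wild-type CantonS Drosophila melanogaster. The genes were chosen as known markers and not by a threshold on their values: Hml, NimC1, eater, Pxn and He, used as plasmatocyte or general hemocyte markers, and PPO1, PPO2 and lz, used as crystal cell markers. All 8 were among the 16240 genes of the deposited table and all 8 passed the minimum of 10 normalized reads on average. The 33 libraries of ribosome-depleted total RNA came from pools of heads of males or females that had been allowed to mate and were then kept apart by sex. Males had 3 libraries at days 0, 30 and 40 and 2 at days 10, 20 and 50, and females had 3 libraries at each of days 0, 10, 20, 30, 40 and 50. No group carried a mutation, transgene or drug. Day 0 is the authors' name for the youngest flies, which by the paper were taken 2 to 3 days after eclosion. The labels give the tissue as heads whereas the design text speaks of brains. Linear reads per library ranged between 28848182 and 94953552 with a median of 57226092, so depth did not limit any marker but He. Values are reads divided by 1 size factor per library, here called normalized reads. A gene was called when limma's adjusted p was under 0.05 and its log2 fold change was beyond 0.5 in size.

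Hemocytes are the blood cells of the fly and circulate or sit attached to tissues, in the adult also in the head. Plasmatocytes are phagocytes that take up bacteria and dead cells and lay down matrix. Crystal cells store prophenoloxidases, which are released and activated at wounds to make melanin. In whole heads a lower level of a marker can come from fewer cells or from less RNA per cell, and these cannot be told apart. Nor can reads of a marker from hemocytes be separated from any made by other cells of the head.

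The markers lie on different chromosome arms (BDGP6.54 annotation, coordinates of dm6). Hml, which encodes hemolectin, a large secreted clotting protein, spans chr3L:13846054-13860001 on the plus strand with 11756 bases of merged exon. NimC1, a phagocytosis receptor of the Nimrod family, lies at chr2L:13973158-13976769 on the minus strand, and He (hemese), a transmembrane protein of hemocytes, lies 210 bases away at chr2L:13972096-13972947 on the same strand. Eater, another Nimrod receptor that binds bacteria, is encoded at chr3R:27095867-27099679, and Pxn, which encodes the matrix enzyme peroxidasin, at chr3L:2601455-2630064, both on the minus strand. PPO1 (chr2R:17887220-17889973) and PPO2 (chr2R:9042261-9044709) encode prophenoloxidases and are on the minus strand. The gene lz, for the RUNX factor Lozenge that directs crystal cell fate and also acts in the developing eye, spans chrX:9284649-9303636 on the plus strand. He shares 78 exon bases with NimB5 on the opposite strand, and Pxn shares 82 with CG16986 on the opposite strand and 151 with lncRNA:CR45660 on its own strand. NimB5 averaged 1292 normalized reads over all libraries, beside 53.6 for He, which has 673 exon bases. CG16986 averaged 592 and lncRNA:CR45660 13.6. The strand setting of the counting is not given in the sources used here, so reads in these stretches are uncertain.

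Levels differed between markers. Per kilobase of merged exon and averaged over all 33 libraries, Pxn had 1587 normalized reads, PPO2 1420, Hml 1324, NimC1 1071, PPO1 1048, lz 537, eater 291 and He 79.6. He was the least abundant at 53.6 normalized reads per library on average, and its groups were the most variable, with a median coefficient of variation of 25.4%. The other 7 had medians between 4.19% for lz and 10.98% for Hml.

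The plasmatocyte genes that were called higher at day 10 in both sexes are shown with the 250 bases before their annotated start (Release 6 genome of RefSeq), written 5′ to 3′ on the gene's strand. Capitals mark the 1 match in each to a GATA motif, searched on both strands as AGATAA or as TGATAA or as AGATAG or as TGATAG, because the GATA factor Serpent is a known regulator of blood cell genes.
Hml (chr3L:13845804-13846053, plus strand): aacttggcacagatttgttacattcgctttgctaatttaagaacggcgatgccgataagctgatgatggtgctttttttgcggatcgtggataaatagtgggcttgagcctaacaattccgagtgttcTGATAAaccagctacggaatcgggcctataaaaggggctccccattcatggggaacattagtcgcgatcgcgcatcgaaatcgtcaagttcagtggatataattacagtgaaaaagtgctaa
NimC1 (chr2L:13976770-13977019, minus strand): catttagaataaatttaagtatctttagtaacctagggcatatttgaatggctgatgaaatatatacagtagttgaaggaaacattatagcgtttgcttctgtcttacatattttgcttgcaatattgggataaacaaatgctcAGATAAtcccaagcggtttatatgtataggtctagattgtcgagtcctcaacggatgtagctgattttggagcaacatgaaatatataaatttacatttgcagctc
eater (chr3R:27099680-27099929, minus strand): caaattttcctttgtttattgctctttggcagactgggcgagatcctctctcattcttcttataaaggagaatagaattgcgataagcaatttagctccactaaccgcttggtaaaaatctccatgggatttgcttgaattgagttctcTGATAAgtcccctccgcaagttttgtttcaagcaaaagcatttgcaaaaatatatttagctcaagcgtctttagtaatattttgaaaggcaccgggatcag
A GATA match was present in 6 of the 8 markers, Hml, NimC1, eater, Pxn, PPO1 and PPO2, and in 42.3% of 16111 upstream windows of the same length. A RUNX motif, searched on both strands as AACCACA or as AACCGCA or as GACCACA or as GACCGCA, was found in PPO1 and PPO2, with 2 matches each, and in 8.92% of all windows. Such matches are descriptions of letters and not of bound sites.

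Between days 0 and 10 most markers were called higher, and PPO1 and PPO2 had the highest fold changes of the 8. At day 10 against day 0, 5 of 8 markers were called higher in males and 7 of 8 in females, with none lower. Of the 12685 genes tested, 15.8% were called higher and 16.5% lower in males, and 15.5% higher and 18.3% lower in females. The median log2 fold change of the 8 was 0.79 in males and 1.17 in females, beside 0.012 and 0.0050 over all genes tested. PPO1 had 5075 and 5435 normalized reads in males of day 10, against 231, 233 and 210 at day 0. In females it had 4265, 4194 and 4050 at day 10, against 299, 335 and 315 at day 0. The groups were far apart in both sexes, with a log2 fold change of 4.54 ± 0.23 (SE) in males (limma adjusted p = 9.4e-15) and 3.72 ± 0.21 in females (limma adjusted p = 4.84e-14), or 23.3-fold and 13.2-fold. PPO2 had 5991 and 6118 normalized reads in males of day 10, against 496, 459.5 and 499.5 at day 0. In females it had 6118, 6177 and 6599 at day 10, against 395, 483 and 470 at day 0. Its log2 fold change was 3.64 ± 0.26 in males (limma adjusted p = 9.03e-12) and 3.81 ± 0.23 in females (limma adjusted p = 3.54e-13). Ordered by log2 fold change among all genes tested, PPO1 and PPO2 stood at places 19 and 47 in males and 27 and 22 in females.

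The plasmatocyte markers changed less, and not together. Hml had 14783 and 14717 normalized reads in males of day 10, against 4706, 6103 and 4704 at day 0. In females it had 20925, 19660 and 23827, against 10081, 10078 and 9519. The log2 fold change was 1.52 ± 0.16 in males and 1.11 ± 0.14 in females (limma adjusted p = 9.49e-09 and 2.47e-07). NimC1 rose by 0.88 ± 0.10 in males and 1.25 ± 0.09 in females (limma adjusted p = 3.58e-08 and 3.64e-12), and eater by 0.70 ± 0.18 and 1.07 ± 0.16 (limma adjusted p = 0.00176 and 2.61e-06). He averaged 27.0 at day 10 against 23.3 normalized reads at day 0 in males, with overlapping libraries and no call, and 57.3 against 25.8 in females, where it was called (log2 fold change 1.23 ± 0.34, limma adjusted p = 0.00247). Pxn was not called in either sex: it averaged 10950 at day 10 against 11315 at day 0 in males, with overlapping libraries, and 13112 against 10909 in females. The crystal cell factor lz was called in females (0.61 ± 0.07, limma adjusted p = 4.68e-09) and fell just short of the fold threshold in males (0.47 ± 0.07, limma adjusted p = 3.52e-06).

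**Figure D1:**
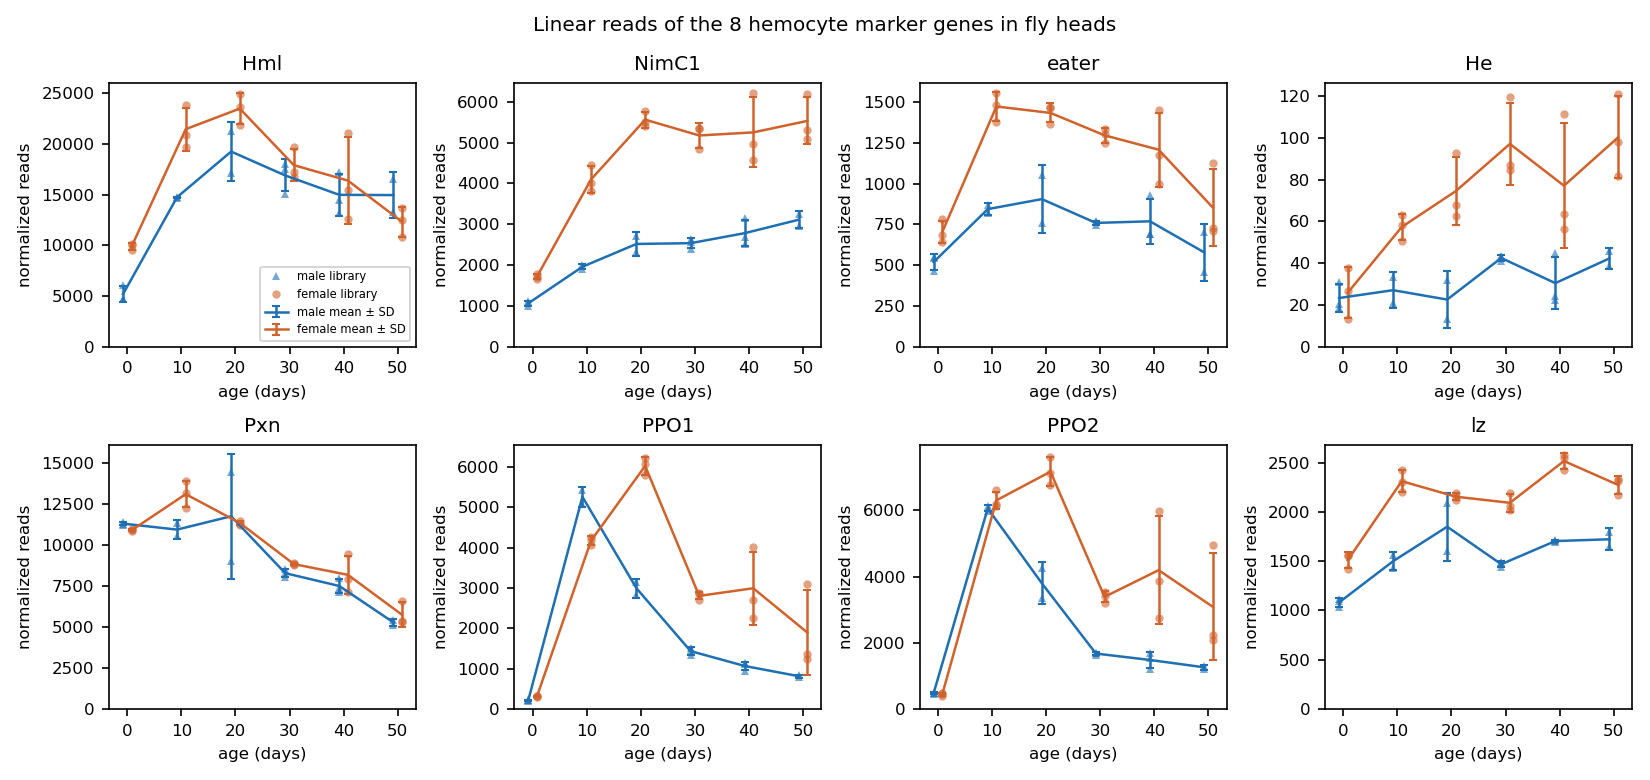
Normalized reads of each marker (vertical axis, linear and starting at 0) by age in days, with males as blue triangles and females as orange circles. Points are libraries and lines join group means ± SD (2 or 3 libraries each). PPO1 and PPO2 lie between 210 and 500 at day 0 and between 4050 and 6599 at day 10 in both sexes.

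Other tissues of the head changed over the same days, measured by the summed normalized reads of marker lists. Such a sum mostly follows the most abundant genes of its list. The fat body list held apolpp, Apoltp, Lsp2, Fbp1, bmm, FASN1, Yp1, Yp2 and Yp3. The 9 fat body markers summed to 1088631 to 1132019 in males of day 10, against 228771 to 261269 at day 0, and to 3387348 to 3964400 in females of day 10, against 743426 to 1021419 at day 0. The 6 muscle markers summed to 108527 to 111460 in males of day 10, against 736173 to 885010 at day 0, and to 172318 to 193173 in females of day 10, against 963313 to 1050034 at day 0. In the fat body list 6 genes were called higher and 1 lower in males, and 5 higher and 3 lower in females. In the glia list, 5 of 6 genes in males and 4 of 6 in females were called lower. These counts stand beside 15.8% called higher and 16.5% lower over all genes in males, and 15.5% and 18.3% in females. Scaling by total linear reads, in place of size factors, moved the median of all genes by 0.18 in males and 0.15 in females. The part of these tissues in the changes of the hemocyte markers was not tested.

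After day 10 the markers parted. At day 50 against day 10, 4 of 8 markers were called lower and 1 higher in males, where 10.4% and 9.15% of all genes were called lower and higher, and 5 were called lower and none higher in females, where 11.7% and 12% were called lower and higher. PPO1 had 842 and 788 normalized reads in males of day 50, against 5075 and 5435 at day 10 (log2 fold change -2.69 ± 0.26, limma adjusted p = 5.36e-09). In females it had 1229, 3096 and 1358, against 4265, 4194 and 4050 (log2 fold change -1.27 ± 0.21, limma adjusted p = 1.48e-05). Male levels of PPO1 ordered the ages as 0, 50, 40, 30, 20 and 10 from low to high with no overlap between neighbours, whereas female levels peaked at day 20, at 5786, 6216 and 6057. PPO2 changed by -2.26 ± 0.28 in males and -1.15 ± 0.23 in females (limma adjusted p = 5.3e-07 and 0.0002). At day 50 against day 0, 6 of 8 markers were called higher and 1 lower in males, where 19.9% and 22.5% of all genes were called higher and lower, and 5 higher and 1 lower in females, where 21% and 24.9% were. Both prophenoloxidase genes were among those called higher. PPO1 was higher by 1.86 ± 0.23 in males and 2.45 ± 0.21 in females, and PPO2 by 1.38 ± 0.26 in males and 2.66 ± 0.23 in females.

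Other tissues moved over these ages too. The fat body markers averaged a sum of 744896 normalized reads in males of day 50, against 1331335 in males of day 20, and of 4874300 in females of day 50, against 8093547 in females of day 20. At day 10 their sums had been 1088631 to 1132019 in males and 3387348 to 3964400 in females. The mean of this sum at day 50 was thus below the day 10 libraries in males and above them in females. At day 50 against day 10, 1 of 9 of them was called higher and 5 lower in males, and 3 higher and none lower in females. In the glia list 2 of 6 genes were called lower in males and 1 in females, with nrv2 called in both sexes (-0.63 in males, -0.62 in females). In the neuron list 1 of 6 was called lower in males and 4 in females, with Syt1 called in both sexes (-0.57 in males, -0.75 in females). These counts stand beside 10.4% called lower and 9.15% higher over all genes in males, and 11.7% and 12% in females. The part of these tissues in the changes of the markers was not tested.

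Pxn was the marker that ended below its starting level. It had 5455 and 5124 normalized reads in males of day 50, against 11367 and 10533 at day 10 and 11291, 11233 and 11422 at day 0. In females it had 5290, 6621 and 5348 at day 50, against 13158, 12291 and 13888 at day 10 and 10841, 10961 and 10927 at day 0. Its log2 fold change of day 50 against day 0 was -1.10 ± 0.12 in males and -0.93 ± 0.11 in females (limma adjusted p = 8.98e-09 and 1.97e-08). Eater returned toward its day 0 level: at day 50 it was lower than at day 10 by 0.58 ± 0.20 on the log2 scale in males and 0.82 ± 0.16 in females (limma adjusted p = 0.0224 and 0.000138). The male call for eater was lost without male day 50 replicate 2 (log2 fold change -0.26, limma adjusted p = 0.409) and without male day 10 replicate 1 or 3 (limma adjusted p = 0.109 and 0.0583). Without male day 50 replicate 1 the value was -0.89.

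NimC1 went the other way. It had 3254 and 2967 normalized reads in males of day 50, against 2001 and 1913 at day 10 (log2 fold change 0.67 ± 0.11, limma adjusted p = 2.61e-05), the 1 marker called higher. In females it had 5098, 6184 and 5317, against 3819, 4012 and 4461, with no overlap but a log2 fold change of 0.43 ± 0.09 that stayed within the fold threshold. Hml separated the sexes. It had 16587 and 13330 in males of day 50, against 14783 and 14717 at day 10, which overlap, and 10784, 13733 and 12467 in females of day 50, against 20925, 19660 and 23827 at day 10, which do not (log2 fold change -0.80 ± 0.14, limma adjusted p = 4.38e-05). He was not called in either sex between days 10 and 50, at 0.78 ± 0.34 in females (limma adjusted p = 0.0553) and 0.66 ± 0.41 in males (limma adjusted p = 0.218). The female value passed with edgeR and DESeq2 on recovered reads and with a pseudocount of 5 (limma adjusted p = 0.0389). It also passed without both male libraries singled out in earlier work for GC content. The same held when any of 6 libraries of other groups was left out. Against day 0, He was called at day 50 in males by a small margin (0.86 ± 0.38, limma adjusted p = 0.0466), and the call was lost in 17 of the 33 fits that left out 1 library. The gene lz was not called in either sex (0.20 in males, -0.02 in females). Over days 10 to 50 together, 5 of 8 markers differed in each sex by limma's F test, where 30.1% of all genes were called in males and 26.3% in females.

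**Figure D2:**
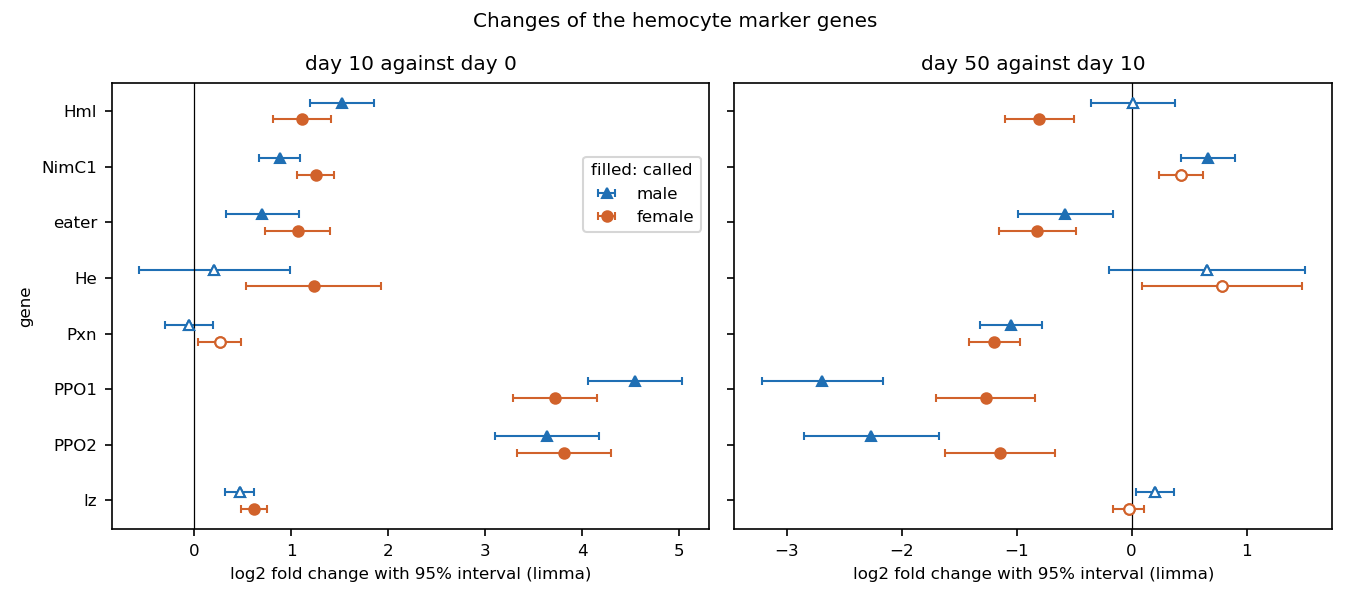
Log2 fold change of each marker (horizontal axis) at day 10 against day 0 and at day 50 against day 10, with 95% intervals from limma, males as blue triangles above females as orange circles. Filled symbols are called genes. PPO1 and PPO2 are far right of 0 at day 10 and left of 0 after it, and Pxn is left of 0 after day 10 only.

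Female day 50 replicate 2 stood apart in the prophenoloxidases. It had 3096 normalized reads of PPO1 and 4952 of PPO2, against 1229 and 1358 of PPO1 and 2221 and 2091 of PPO2 in replicates 1 and 3. PPO1 lay 1.26 and PPO2 1.1999 above the other replicates on the log2 scale, whereas the third crystal cell marker, lz, lay 0.057 above them and the plasmatocyte markers between 0.24 and 0.65. The median of the lamellocyte markers was 0.79. Without this library, the female log2 fold change of day 50 against day 10 was -1.69 for PPO1 and -1.55 for PPO2, both still called. Female day 40 replicate 1 was the highest of its group in all 8 markers, by between 0.055 for lz and 0.89 for He, with 0.70 for PPO1 and 0.87 for PPO2.

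From day 10 on, most markers were called lower in males than in females. Compared within each age, 2, 5, 5, 6, 6 and 5 of the 8 markers were called lower in males at days 0, 10, 20, 30, 40 and 50. Over all genes, 2.99%, 5.37%, 11.7%, 8.18%, 6.33% and 6.94% were called lower at these ages. No marker was called higher, where 281, 796, 620, 517, 494 and 556 of the 12685 genes tested were. With total linear reads as the scale, the calls of Hml at day 10, lz at days 30 and 40 and eater at day 50 were lost. Of all genes called at day 30, 33.2% were higher in males with size factors and 80.7% with total linear reads. NimC1 was called at every age, with log2 differences between -0.69 at day 0 and -1.15 at day 20, and libraries of the sexes did not overlap. At day 20 it had 2718 and 2315 normalized reads in males, against 5786, 5403 and 5502 in females. He was called from day 10 on, with differences between -1.09 and -1.79. The day 10 call of He was lost without male day 10 replicate 1 (limma adjusted p = 0.322) or female day 10 replicate 1 or 2 (limma adjusted p = 0.0699 and 0.0884), and the day 50 call without female day 50 replicate 2 or male day 50 replicate 1 (limma adjusted p = 0.0518 and 0.108). At day 20 its difference was -1.17 without male day 20 replicate 1.

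Eater was called lower in males from day 10 on, at -0.80, -0.68, -0.77, -0.65 and -0.56 on the log2 scale. The day 20 call was lost without male day 20 replicate 2 (-0.45, limma adjusted p = 0.104), and the day 50 call without female day 50 replicate 2 (-0.34, limma adjusted p = 0.138) or male day 50 replicate 2 (-0.25, limma adjusted p = 0.435). Hml was lower in males by 0.95 at day 0 and 0.54 at day 10, and was not called at later ages. At day 0 it had 4706, 6103 and 4704 normalized reads in males, against 10081, 10078 and 9519 in females. The day 10 call was lost when male replicate 1 or 3 or female replicate 3 of that day was left out (limma adjusted p = 0.0774, 0.0804 and 0.0647). Pxn was called at no age. At day 20 its 2 male libraries were 14463 and 9063, against 11259, 11489 and 11314 in females, and the difference of 0.01 became -0.33 without male day 20 replicate 1.

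The prophenoloxidases were not called between the sexes at days 0 and 10 and were lower in males at each later age. PPO1 differed by -0.49 at day 0 and 0.33 at day 10 on the log2 scale, and PPO2 by 0.11 and -0.056. PPO1 differed by -1.01, -0.97, -1.45 and -1.09 on the log2 scale at days 20, 30, 40 and 50, and PPO2 by -0.92, -1.01, -1.44 and -1.17 (limma adjusted p between 5.59e-06 and 0.00611). At day 40 PPO1 had 1109, 1141 and 952 normalized reads in males, against 4009, 2707 and 2258 in females. The male and female libraries of both genes did not overlap at these ages. Without female day 50 replicate 2 the day 50 difference was -0.67 for PPO1 and -0.77 for PPO2, both still called. The PPO2 call at day 20 was lost without male day 20 replicate 2 (-0.75, limma adjusted p = 0.0687). The gene lz was called lower in males at days 10, 30 and 40 (-0.62, -0.51 and -0.56). The day 30 call of lz lay near the fold threshold and was lost without female day 30 replicate 2 or male day 30 replicate 3 (-0.47 and -0.49).

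**Figure D3:**
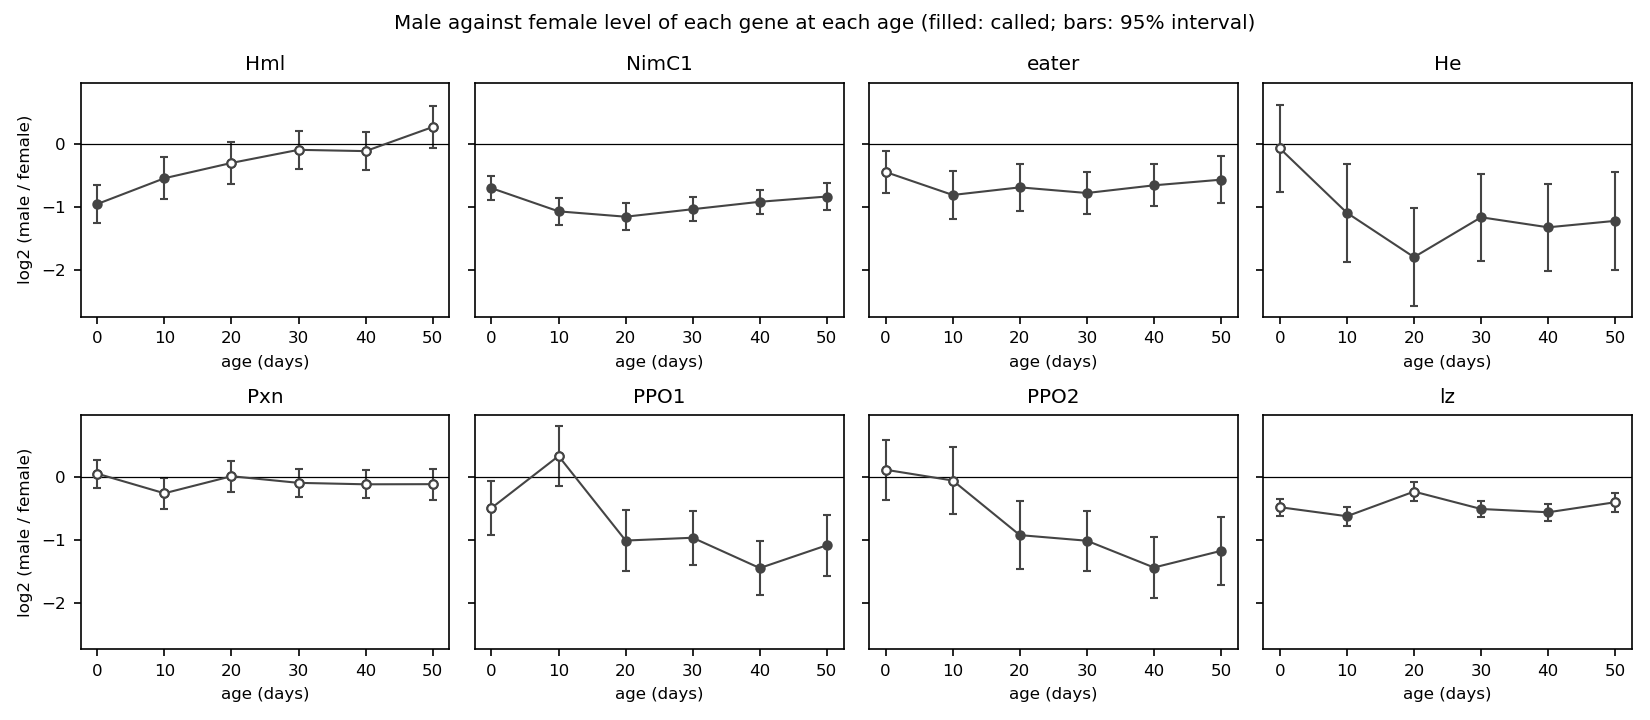
Log2 ratio of males over females for each marker (vertical axis) by age in days, with 95% intervals from limma. Filled points are called. NimC1 is below 0 at every age, PPO1 and PPO2 are below 0 from day 20 on, and Pxn stays near 0. PPO1 is also below 0 at day 0 and is above 0 at day 10, neither called.

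The sex difference of the change with age was itself tested. Between days 0 and 10 none of the 8 markers was called by limma, where 6.36% of all genes were, nor by edgeR or DESeq2, and 2, NimC1 and PPO1, had an unadjusted limma p under 0.05. PPO1, at 0.83 (95% interval 0.18 to 1.47, limma adjusted p = 0.0997), was called without female day 50 replicate 2, which lowered the estimated spread (limma adjusted p = 0.00212). Between days 10 and 50 it was called for 3 markers, where 7.77% of all genes were. The male change minus the female change was -1.42 ± 0.33 on the log2 scale for PPO1 (SE, limma adjusted p = 0.004), -1.12 ± 0.37 for PPO2 (limma adjusted p = 0.0416) and 0.81 ± 0.23 for Hml (limma adjusted p = 0.016). Without female day 50 replicate 2 these were -0.998 for PPO1, still called, and -0.72 for PPO2, not called (limma adjusted p = 0.0775). The PPO2 call was lost in each of 8 fits without 1 library of days 10 or 50, and the Hml call without male day 10 replicate 3 (limma adjusted p = 0.0541) or male day 50 replicate 1 (0.66, limma adjusted p = 0.11). Between days 0 and 50, Hml (1.22, limma adjusted p = 0.000322) and PPO2 (-1.29, limma adjusted p = 0.0146) were called, where 6% of all genes were. The PPO2 call was lost without male day 50 replicate 1 (limma adjusted p = 0.0659).

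PPO1 and PPO2 followed each other. Over the 12 group means of log2 values each was the gene most like the other among all 12685 tested, with a Pearson correlation of 0.990, which is a description of groups that share sexes and ages. The reads of PPO1 over those of PPO2 lay between 0.421 and 0.935 in all libraries. The ratio averaged 0.464 in males and 0.707 in females of day 0, and 0.648 in males and 0.609 in females at day 50. At day 10 it averaged 0.868 in males and 0.663 in females, so between days 0 and 10 it rose in males only. The next most alike genes were CG2736 and dob for PPO1 (0.956 and 0.953), and Gbs-76A and Pisd for PPO2 (0.953 and 0.947). The correlation of lz with PPO1 was 0.684 and that with NimC1 was 0.941. For the other markers the most alike genes were Trf for Hml (0.935), CG2875 for NimC1 (0.987), r-l for eater (0.964), CG11498 for Pxn (0.972), RpS29 for He (0.9751) and BCL7-like for lz (0.954).

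Set against the plasmatocyte genes, the prophenoloxidases rose and fell. The sum of PPO1 and PPO2 per kilobase was 10.8% of that of the 5 plasmatocyte genes in males and 9.66% in females of day 0. It was 123% ± 7.43 in males (SD, n = 2) and 78.5% ± 4.29 in females (SD, n = 3) at day 10. At day 20 it was 63.5% in males and 93.2% in females, and at day 50 it was 27.1% ± 3.23 in males (SD, n = 2) and 51.1% ± 20.5 in females (SD, n = 3), where the libraries lay between 38.0% and 74.7%. The make-up of the plasmatocyte sum changed with age. In males Pxn gave 1900 of its 2854 reads per kilobase at day 0 and 888 of 3344 at day 50. Hml gave 440 and 1272 there. In females Pxn gave 1832 of 3446 and 966 of 4103, and Hml 842 and 1049.

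**Figure D4:**
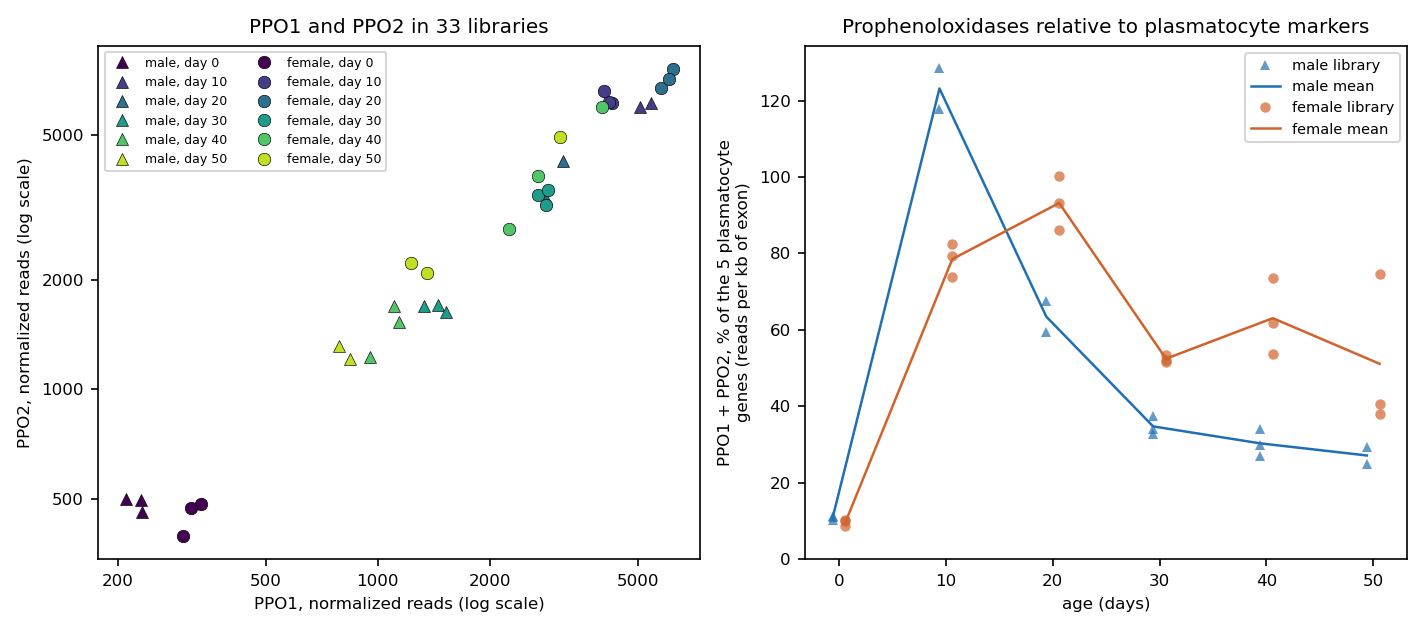
On the left, PPO2 against PPO1 in normalized reads on log axes, 1 symbol per library, males as triangles and females as circles, coloured by age. On the right, the summed reads per kilobase of PPO1 and PPO2 as a percent of those of the 5 plasmatocyte markers by age, with lines through group means. Both sexes start near 10%, and males reach 123% at day 10.

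Lists of genes that work with these markers differed in their calls at day 10 against day 0. Over all genes 15.8% were called higher and 16.5% lower in males, and 15.5% and 18.3% in females. Of the 8 tested Nimrod genes beyond the markers, 3 were called higher and 4 lower at day 10 against day 0 in males, and 4 higher and 3 lower in females. Among 4 tested scavenger and engulfment receptors, 1 was called higher in each sex and none lower, and the abundant receptors crq (-0.17 in males, -0.14 in females) and drpr (-0.46 in males, -0.33 in females) were not called. Of 8 genes of engulfment signalling, which carries the signal of such receptors to the cytoskeleton, 1 was called lower in each sex at day 10. Among 7 tested genes of the melanization cascade, which activates prophenoloxidases, 1 was called higher and 1 lower in males and 3 higher and none lower in females at day 10, and 2 higher and none lower in each sex at day 50 against day 10. The protease gene Hayan was called higher at day 10 (1.25 in males, 0.80 in females) and again at day 50 against day 10 (0.93 in males, 0.83 in females). The serpin gene Spn27A was not called at day 10 (-0.0054 in males, -0.091 in females) and was called higher at day 50 against day 10 (0.56 in males, 0.52 in females). The list summed on average to 18656 normalized reads at day 10, against 18589 at day 0, in males, and to 19580 at day 10, against 19562 at day 0, in females. From 3 further lists, of 5 thioester genes, 5 hemocyte matrix genes and 9 hemocyte factor genes, only genes picked by the rule given below are described. Counts of calls in these lists are not given, so the named genes do not stand for the others. Tep2, a thioester protein, was higher at day 10 (1.10 in males, 0.56 in females) and at day 50 against day 10 (0.56 in males, 1.34 in females). Of the hemocyte matrix genes, Ppn was called higher at day 10 (1.24 in males, 1.61 in females). It was not called at day 50 against day 10 (0.25 in males, -0.48 in females). Glt was not called at day 10 (0.074 in males, -0.34 in females). At day 50 against day 10 Glt was called lower in males only (-0.78). Among growth factors for hemocytes, Pvf3 was called lower in both comparisons, by 0.72 and 0.82 in males and 1.08 and 0.84 in females on the log2 scale. Pvf2 was lower at day 10 (-0.63 in males, -0.93 in females) and higher at day 50 against day 10 (0.92 in males, 1.23 in females).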

How the data were processed

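Heads of CantonS males and females of 6 ages were measured by sequencing of ribosome-depleted total RNA in 33 libraries. The deposited table holds a signal per gene made by the authors, who aligned reads to dm6 with STAR, counted them with featureCounts, searched circRNAs with find_circ2 and divided both by DESeq2 size factors. Tool versions and the strand setting are not given in the sources used here. The male outlier samples left out by the authors were not analysed here. Whole reads within 0.01 were recovered in 32 columns, and male day 20 replicate 1 was left out of the count tests. The analysis used limma 3.58.1 (trend, robust) on log2(value + 1), so fold changes of low genes are understated. It took 12685 of 16240 linear genes with a mean of at least 10, 1 mean per sex and age, and Benjamini-Hochberg adjustment over all of them. All 8 markers are named. Genes of the other lists were picked as up to 4 called in both sexes at day 50 against day 10, otherwise up to 2 by mean. Not all genes so picked are named. Further genes named for likeness are the 3 with the highest correlation over 12 group means. The members and lists were chosen with earlier results of these data known. Of 102 list symbols, 99 were in the table. Alternatives were pseudocounts of 0.5 and 5, no filter, a minimum of 50, total scaling, edgeR 4.0.16, DESeq2 1.42.0, a replicate block, and leaving out libraries. The scripts were tested on simulated data.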

Additional observations from a re-analysis of the deposited data

Results flagged for a closer look

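In 5 cases the change with age differed between the sexes by limma's test of the difference itself, given as the male change minus the female change on the log2 scale. Between days 0 and 50 these were Hml at 1.22 and PPO2 at -1.29. Between days 10 and 50 they were Hml at 0.81, PPO1 at -1.42 and PPO2 at -1.12. Over all genes, 6% were called between days 0 and 50 and 7.77% between days 10 and 50. The PPO2 call of each span and the Hml call between days 10 and 50 were lost when some single libraries were left out. The PPO2 call between days 10 and 50 was also lost with total scaling and with no filter.

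Back-splice reads, which the comparisons above do not use, were found at 3 circRNAs of the markers in many libraries, above the limit that a count of 0 allows. The circRNA of lz at chrX:9288332-9295639 had 306 reads over all libraries, that of lz at chrX:9293906-9295639 had 191, and that of Pxn at chr3L:2610494-2612003 had 190. Female day 50 replicates 1 and 2 held the same back-splice reads in 4330 of 4330 circRNAs with a read. They were counted as 1 library in the group means below, but the totals above include both. The lz circRNA with 306 reads averaged 6.67 normalized reads in males and 12.8 in females at day 50, against 0.640 in males and 4.36 in females at day 0. No test was made on these low values.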

How the results depend on the processing

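The counts of markers called in the 17 comparisons stayed within 1.5 times under all 9 alternatives beside leaving out single libraries. These include the fit without both male libraries singled out in earlier work for GC content, which was not recomputed here. They also include edgeR and DESeq2, which left out male day 20 replicate 1. Leaving out each of 33 libraries in turn moved some: the counts ranged between 3 and 5 for males against females at day 10, 3 and 5 at day 20 and 3 and 5 at day 50, and for the sex difference of the change between 0 and 1 (day 10 against day 0), 1 and 2 (day 50 against day 0) and 1 and 3 (day 50 against day 10). The libraries behind the low or high ends were male day 10 replicate 1, male day 20 replicate 2 and female day 50 replicate 2 for the sexes, and female day 50 replicate 2, male day 50 replicate 1 and male day 10 replicate 3 for the sex differences.

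Signs turned only for log2 values that were not called. With total linear reads as the scale, these were 0.13 for Pxn in males at day 10 against day 0, and for males against females 0.014 for PPO2 at day 10, 0.16 for Hml and 0.15 for Pxn at day 30, 0.033 for Hml and 0.022 for Pxn at day 40, and 0.061 for Pxn at day 50; for the sex difference of day 50 against day 0 they were 0.00071 for NimC1 and 0.012 for eater. Pxn for males against females at day 20 was -0.0013 with the replicate block. It was -0.33 without both male libraries, -0.31 with edgeR and -0.33 with DESeq2, all of which leave out male day 20 replicate 1, so that the male group is 1 library and is assumed to vary like the others. With single libraries left out, the ranges that crossed 0 were, for males against females, -0.46 to 0.26 for He at day 0, -0.33 to 0.35 for Pxn at day 20 and -0.28 to 0.093 for Hml at day 40. For day 10 against day 0 in males they were -0.11 to 0.53 for He and -0.10 to 0.0065 for Pxn. For day 50 they were -0.15 to 0.17 for Hml in males against day 10, -0.18 to 0.44 for eater in males against day 0 and -0.057 to 0.011 for lz in females against day 10. For the sex difference they were -0.43 to 0.19 for eater (day 50 against day 0), and -0.068 to 0.55 for eater and -0.45 to 0.19 for He (day 50 against day 10). The cause was not tested.

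Calls for lz (males against females, days 30 and 40), Hml (day 10), eater (day 50) and the PPO2 sex difference of day 50 against day 10 were lost with total scaling (log2 values -0.26, -0.42, -0.47, -0.39 and -1.01), and lz in males at day 10 against day 0 was gained (0.65). The PPO2 sex difference was also lost with no filter (limma adjusted p = 0.0532), as was He in males at day 50 against day 0 (limma adjusted p = 0.0536), and with edgeR lz was called at day 0 (-0.51) and not at day 30 (-0.496) for males against females. Total scaling also moved the share of higher calls among all genes, for males against females at days 20, 30, 40 and 50 to 60.2%, 80.7%, 65.0% and 73.0%, against 29.5%, 33.2%, 38.1% and 38.7% with size factors. It moved it at day 50 against day 0 in males to 67.6%, against 46.8%, at day 50 against day 10 in males to 58.0%, against 46.8%, and for the sex difference of the change to 67.1%, against 42.6% (day 50 against day 0) and 42.7%, against 25.7% (day 50 against day 10), and at day 10 against day 0 to 66.0% in males, against 49.0%, and 60.5% in females, against 45.9%. Same replicate numbers were not taken to mark paired samples. Correlations of their deviations ranged between -0.32 and 0.48 in males (median 0.029) and -0.10 and 0.068 in females (median -0.0086). With so few libraries per group these values cannot exclude shared handling. The replicate block lost the call of He in males at day 50 against day 0 (0.81, limma adjusted p = 0.0693) and no other. Groups of 2 or 3 libraries limit precision, and He rests on few reads.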
